A study of Homo sapiens with 12 samples.

Results

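The EGFR family receptors and their ligands are described here in A549 cells, an established human lung adenocarcinoma line that carries a Ras mutation. The 10 genes were chosen by name, as 3 receptors (EGFR, ERBB2 and ERBB3) and 7 ligands (AREG, EREG, HBEGF, TGFA, BTC, NRG1 and EPGN), from 58735 genes in the table of counts. The study asked how GFI1, a zinc-finger repressor of transcription known from blood cell development, changes lung cancer cells that lose contact with a substrate. RNA-Seq was done on 4 groups of 3 libraries. They were A549 control cells grown attached, A549 cells expressing GFI1 grown attached, and each of these kinds of cells after 48 hours of forced suspension on low-attachment plates, when they were floating. GFI1 was delivered by a lentivirus in which the human PGK promoter drives the transgene beside a GFP marker, and the transduced cells were sorted by GFP. The sources used here do not state which vector, if any, the RNA-Seq controls carried, so the effect of GFI1 and that of transduction cannot be told apart. Nothing states that the replicates were separate cultures, and p values therefore measure the spread between these libraries, which may be technical.

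EGFR, ERBB2 and ERBB3 are receptor tyrosine kinases that signal as pairs. EGFR binds AREG, EREG, HBEGF, TGFA, BTC and EPGN. ERBB3 binds NRG1 and has little kinase activity of its own, and ERBB2 has no known ligand and acts as the favoured partner of the other receptors. The ligands are made as membrane-bound precursors, which ADAM proteases cut free, and the paired receptors then switch on the RAS to ERK and the PI3K routes, which are often active in lung adenocarcinoma.

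Total counts were 17014188 to 20748677 per library, and GFI1 itself had 4 to 12 counts in the control and 5154 to 12796 counts in the GFI1 libraries, as labelled. Among GFI1 cells, GFI1 was 1.93-fold higher in floating than in attached libraries (log2 change 0.95 ± 0.095 SE, edgeR adjusted p = 2.38e-08). Comparisons of the GFI1 effect between attached and floating cells, and the interaction, thus also compare different GFI1 levels. Suspension and the GFI1 level cannot be told apart there. Floating GFI1 replicates 2 and 3 differed more from each other than any other pair of replicates, with a chi-square per gene of 11.2 against 1.98 to 4.78 for the other 11 of the 12 pairs within groups. GFI1 had 12796 counts in replicate 2 and 8649 in replicate 3 of that group. Values without either library are given beside the calls of the receptors and ligands that change without it. For other genes, some calls lost without these libraries are given only as a number of fits. Summed over 8 epithelial and A549 markers, the level was 13994 to 14945 CPM (reads of a gene per 1e6 reads of its library, scaled between libraries by TMM) in attached control, 6044 to 6255 in attached GFI1, 11442 to 11924 in floating control and 5087 to 5667 in floating GFI1 libraries. Of these 8 markers, all tested, 2 rose (AKR1C1 and KRT19) and 6 fell (CDH1, AKR1B10, KRT18, EPCAM, KRT8 and KRT7) with GFI1 in attached cells at an edgeR adjusted p of 0.05 or less, and 1 rose (AKR1C1) and the same 6 fell in floating cells, except that KRT7 was not past the threshold with scaling by library size only (-0.082 and -0.00061 on the log2 scale) or, in floating cells, by upper quartile (-0.083). The change in attached cells ran from -4.22 for CDH1, which encodes E-cadherin, at 120 ± 2.24 CPM in attached control and 6.45 ± 0.671 CPM in attached GFI1 libraries (SD, n = 3), to 1.08 for AKR1C1, at 654 ± 33.4 and 1386 ± 56.8 CPM, on the log2 scale. KRT7, KRT8 and KRT18 were abundant in every library, while EPCAM was at 0.277 to 2.68 CPM. The defining blood markers PTPRC and CD3E had at most 1 count in any library, SPI1 had 1 to 7 counts, and CD14 was at 4.11 to 13.8 CPM. Of 4 endothelial markers the sum was 0.109 to 0.662 CPM in control and 3.55 to 5.52 CPM in GFI1 libraries, mostly CDH5, and KDR had at most 1 count. Of 6 fibroblast markers the sum was 12.8 to 14.5 CPM in attached control, 8.68 to 9.80 in attached GFI1, 10.1 to 11.4 in floating control and 5.77 to 8.38 in floating GFI1 libraries. COL1A1, a collagen chain, fell with GFI1 in attached cells, from 13 ± 0.878 to 6.37 ± 0.484 CPM (SD, n = 3), while PDGFRB, a growth factor receptor, rose from 0.133 ± 0.0659 to 2.22 ± 0.373 CPM, COL1A2 and LUM had at most 3 counts, and DCN had 0 counts in every library. In floating cells COL1A1 fell (-1.41 on the log2 scale) and PDGFRB rose (3.42) with GFI1 too. PDGFRA, at 0.172 to 1.59 CPM, fell with GFI1 in floating cells (-1.38, edgeR adjusted p = 0.00607). In attached cells its change of 0.35 did not pass (adjusted p = 0.589), and suspension of control cells raised it (1.91, adjusted p = 0.00134). The part of these shifts in the results on the receptors and ligands was not tested.

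Of the 10 genes, 9 passed the filter on low counts and were tested with edgeR's quasi-likelihood test, with p values adjusted by Benjamini-Hochberg over all 17829 tested genes and a threshold of 0.05. EPGN, which encodes epigen, had 0 to 9 counts and was not tested. In attached cells, GFI1 raised 1 of the 9 genes (BTC) and lowered 6 (ERBB2, AREG, NRG1, TGFA, ERBB3 and EREG). Of all tested genes, 62.3% passed the threshold in this comparison, 29.5% higher and 32.8% lower, so that 7 of 9 was near the share among all genes. In floating cells, GFI1 raised 3 (BTC, EGFR and NRG1) and lowered 4 (ERBB2, AREG, ERBB3 and EREG), against 60.4% of all genes, 29.3% higher and 31.1% lower. Suspension of control cells raised ERBB3 and lowered NRG1, ERBB2 and EGFR, which made 4 of 9 against 40.1% of all genes, 19.6% higher and 20.5% lower. Suspension of GFI1 cells raised ERBB3 and TGFA and lowered ERBB2 and EREG, also 4 of 9, against 31.3% of all genes, 15% higher and 16.3% lower. The interaction, which is the log2 change on suspension in GFI1 cells minus that in control cells, was past the threshold and positive for NRG1 and EGFR, 2 of 9 against 10.8% of all genes, 4.76% higher and 6.01% lower. The median size of the log2 change was 0.41 over the 9 genes and 0.40 over all tested genes for GFI1 in attached cells, and 0.48 and 0.38 in floating cells. It was 0.23 and 0.24 for suspension of control cells, and 0.27 and 0.19 for suspension of GFI1 cells. The GFI1 effect in attached cells and the suspension effect in control cells share the attached control libraries, and the other neighbouring pairs of comparisons share a group in the same way.

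**Figure D1:**
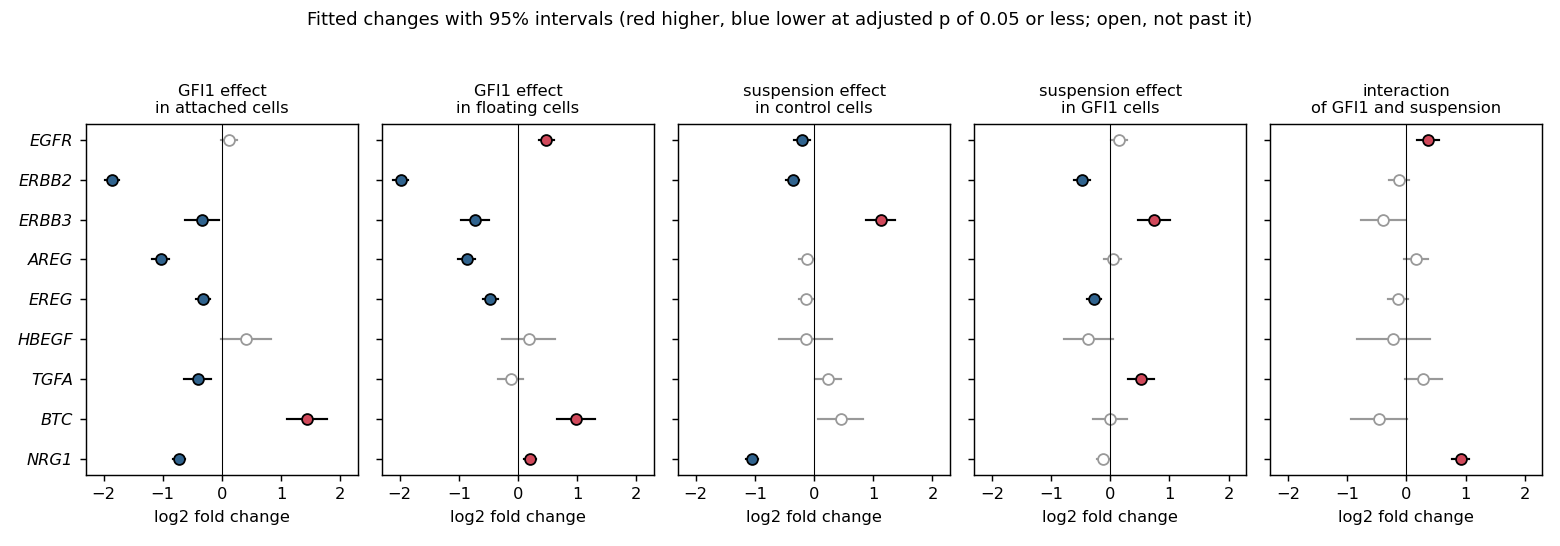
Fitted log2 fold changes (points) with 95% intervals (lines) of the 9 tested genes, 1 panel per comparison and with the interaction at the right. Red and blue points passed an adjusted p of 0.05 as higher and lower, and open points did not. ERBB2 lies farthest to the left in both GFI1 panels, and the direction of NRG1 differs between them.

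ERBB2 (ENSG00000141736, chr17:39687914-39730426, plus strand, hg38) had the largest change among the receptors with GFI1. Its level in the attached control libraries was 89.9, 88.4 and 87.6 CPM, and in the attached GFI1 libraries it was 23, 25.3 and 24.9 CPM. In the floating control libraries it was 73.6, 66.5 and 67.1 CPM, and the floating GFI1 libraries had 18.7, 16.7 and 17.1 CPM. The 4 groups did not overlap, in the order attached control, floating control, attached GFI1 and floating GFI1. GFI1 lowered ERBB2 3.62-fold in attached cells (log2 fold change -1.86 ± 0.057 SE, edgeR adjusted p = 1.34e-19), and 3.94-fold when they floated (-1.98 ± 0.061, adjusted p = 1.61e-19). In bulk RNA, fewer cells that express a gene and less RNA of it per cell cannot be told apart. A larger change with GFI1 was seen in 7.26% of all tested genes in attached and 6.38% in floating cells. Suspension lowered ERBB2 by less, 1.28-fold in control cells (-0.36 ± 0.052, adjusted p = 3.03e-06) and 1.40-fold in GFI1 cells (-0.48 ± 0.067, adjusted p = 3.29e-06). The 95% interval of the interaction of ERBB2 was -0.30 to 0.05 on the log2 scale.

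On the opposite strand, PGAP3, an enzyme that remodels GPI anchors, overlaps the start of ERBB2 over 8884 bases, and MIEN1 overlaps its end over 1931 bases. The strand setting of the counting was not stated, so reads from the shared bases cannot be assigned to either gene with certainty. PGAP3 rose with GFI1, by 0.26 ± 0.069 in attached cells (edgeR adjusted p = 0.00181), and by 0.24 ± 0.069 when they floated (adjusted p = 0.00392), and MIEN1 had changes of 0.09 (adjusted p = 0.281) and 0.10 (adjusted p = 0.239). Neither overlapping gene fell in its whole-gene counts, and the part of the reads from the shared bases was not tested. GRB7, which encodes an adaptor that binds ERBB2, lies 7.5 kb past the end of ERBB2 without overlap. Its level was 11.1, 9.78 and 10.7 CPM in attached control and 3.89, 4.57 and 3.71 CPM in attached GFI1 libraries. It was 12.6, 13.1 and 12.6 CPM in floating control and 2.92, 3.64 and 2.69 CPM in floating GFI1 libraries. GRB7 fell with GFI1, with a log2 change of -1.37 ± 0.124 in attached cells (adjusted p = 4.98e-10) and -2.05 ± 0.129 when they floated (adjusted p = 3.95e-13), and its interaction was past the threshold as well (-0.68 ± 0.184, adjusted p = 0.0159).

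EGFR (ENSG00000146648, chr7:55019021-55211628, plus strand), the receptor of EGF and most of the ligands here, was the most abundant of the 3 receptors. It stood at 274.8, 296.1 and 276.3 CPM in the attached control libraries and at 302.0, 308.9 and 309.5 CPM in the attached GFI1 libraries. It stood at 250, 253.1 and 231.1 CPM in floating control cells and at 330.5, 393.2 and 299.9 CPM in floating GFI1 cells. The GFI1 libraries were above the control libraries in either condition, and floating control was the lowest group. In attached cells the difference with GFI1 was 0.12 ± 0.064 on the log2 scale (95% interval -0.01 to 0.25) and did not pass the threshold (edgeR adjusted p = 0.108). In floating cells EGFR was 1.39-fold higher with GFI1 (0.48 ± 0.064, adjusted p = 4.70e-07). Suspension lowered EGFR 1.15-fold in control cells (-0.21 ± 0.065, adjusted p = 0.0120), a call that was lost without attached control replicate 2 (-0.17, adjusted p = 0.0706) or floating control replicate 3 (-0.17, adjusted p = 0.0795). In GFI1 cells the change on suspension was 0.15 ± 0.064 (adjusted p = 0.0714), and it passed the threshold without floating GFI1 replicate 3 (0.24, adjusted p = 0.000894) but was 0.023 without replicate 2 (adjusted p = 0.787). The interaction was 0.36 ± 0.091 (adjusted p = 0.00976), with 0.23 without floating GFI1 replicate 2 (adjusted p = 0.0188) and 0.44 without replicate 3 (adjusted p = 5.72e-05). With robust empirical Bayes it did not pass (0.36, adjusted p = 0.0832). Replicate 2 of the floating GFI1 group, which had the highest EGFR level, also had the highest GFI1 count. The antisense gene EGFR-AS1, within the EGFR locus, had 13 to 32 counts, which summed to 0.36% of the number of EGFR counts.

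ERBB3 (ENSG00000065361, chr12:56076799-56103505, plus strand), the neuregulin receptor, was expressed at a low level and rose on suspension. It was at 6.25, 5.87 and 5.62 CPM in attached control and at 5.24, 4.98 and 3.86 CPM in attached GFI1 libraries. It was at 12.3, 14.0 and 12.4 CPM in floating control and at 6.84, 7.99 and 8.51 CPM in floating GFI1 libraries, so that each floating group lay above both attached groups. Suspension raised it 2.18-fold in control cells (1.12 ± 0.122, edgeR adjusted p = 4.30e-08), where 4.90% of all tested genes changed by more, and 1.66-fold in GFI1 cells (0.73 ± 0.130, adjusted p = 8.93e-05). GFI1 lowered it 1.65-fold in floating cells (-0.72 ± 0.116, adjusted p = 6.82e-06). In attached cells the lower level with GFI1 was near the threshold (-0.33 ± 0.137, adjusted p = 0.0369), and the call was lost without attached GFI1 replicate 3 (-0.19, adjusted p = 0.270), attached control replicate 1 (-0.29, adjusted p = 0.109) or attached control replicate 2 (-0.34, adjusted p = 0.0676). It was also lost under DESeq2 (-0.33, adjusted p = 0.0715). The interaction of ERBB3 was -0.39 ± 0.180 and did not pass (adjusted p = 0.193).

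**Figure D2:**
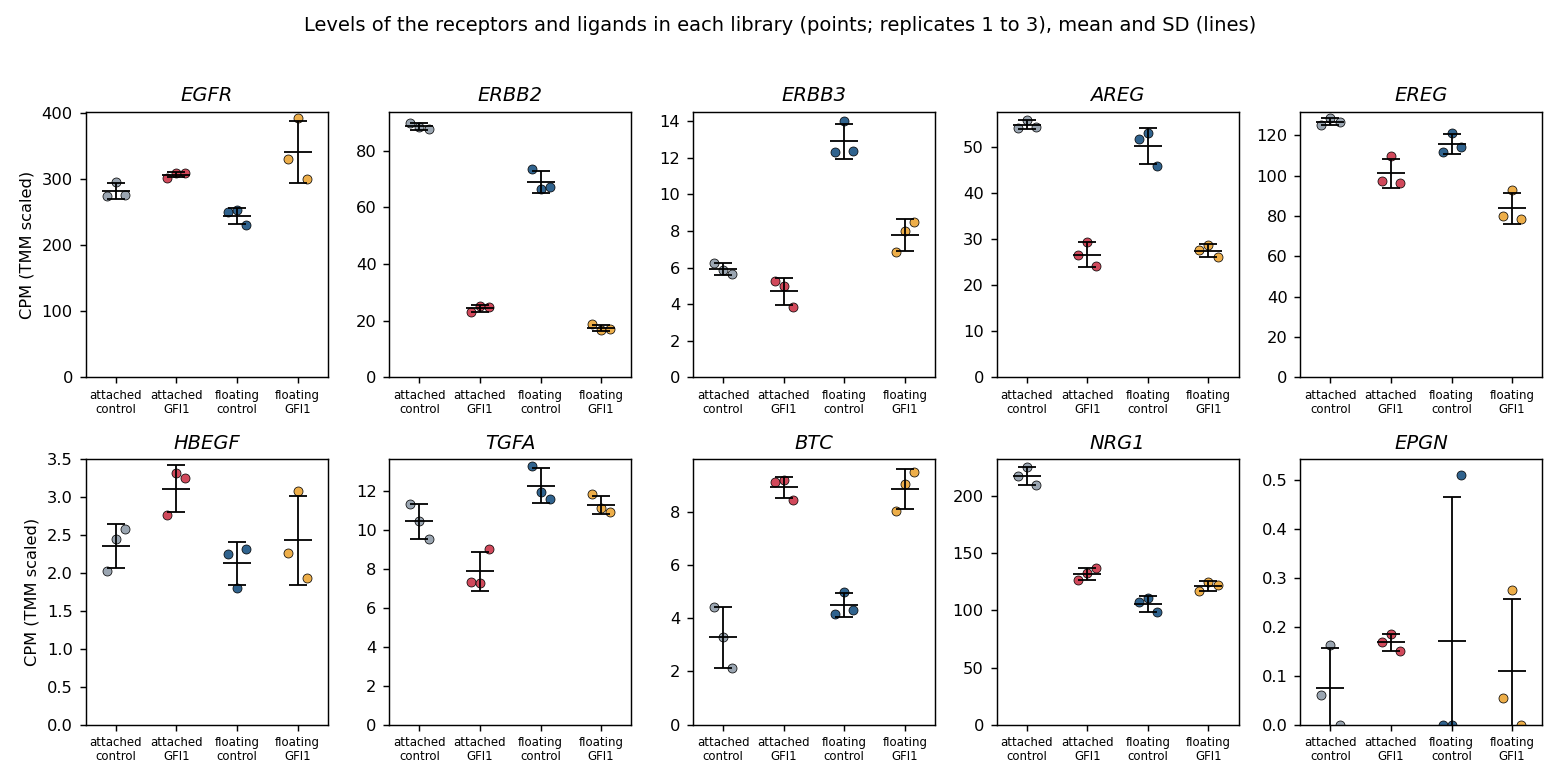
Level of each of the 10 genes in each library in CPM scaled by TMM, with 1 point per library and the mean ± SD of each group as lines (n = 3). Each panel has its own axis from 0. ERBB2 and AREG lie lower in GFI1 than in control libraries, BTC lies higher, ERBB3 lies higher in floating cells, NRG1 is highest in attached control cells, and EPGN is below 1 CPM.

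Ratios between genes of the same library do not depend on how libraries are scaled, but their absolute size depends on the gene lengths used. They were taken as the log2 ratio of counts plus 0.5 divided by gene length, and tested over the 12 libraries with exact two-sided permutation tests in which labels moved within the other factor (400 arrangements, smallest possible p = 0.005, 8 tests adjusted by Benjamini-Hochberg). Per length, there were 0.397, 0.362 and 0.385 ERBB2 for each EGFR in attached control and 0.0927, 0.0994 and 0.0976 in attached GFI1 libraries. In floating cells the ratio was 0.357, 0.319 and 0.352 in control and 0.0687, 0.0516 and 0.0693 in GFI1 libraries. GFI1 lowered the ratio of ERBB2 to EGFR 4.64-fold over both conditions (exact permutation p = 0.005, the smallest possible, adjusted p = 0.00667), and suspension lowered it 1.31-fold (p = 0.005, adjusted p = 0.00667). With GFI1 the ratio was 3.95-fold lower in attached and 5.46-fold lower in floating cells, and on suspension it was 1.11-fold lower in control and 1.54-fold lower in GFI1 cells. There were 0.0317, 0.0276 and 0.0283 ERBB3 for each EGFR in attached control and 0.0242, 0.0225 and 0.0174 in attached GFI1 libraries. In floating cells this ratio was 0.0685, 0.0766 and 0.0742 in control and 0.0288, 0.0283 and 0.0394 in GFI1 libraries, so that floating control cells had the most ERBB3 for each EGFR. With GFI1 the ratio of ERBB3 to EGFR was 1.38-fold lower in attached and 2.3-fold lower in floating cells, a mean of 1.78-fold. On suspension it was 2.51-fold higher in control and 1.5-fold higher in GFI1 cells, a mean of 1.94-fold. Both means had the smallest exact permutation p = 0.005 and an adjusted p = 0.00667. Whether a ratio changed differently in the 2 conditions or the 2 kinds of cells was not tested for any of the 4 ratios.

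Levels of different genes were compared as TPM, a share of all transcripts that divides each count by gene length. The lengths are those deposited for each gene, and which transcripts were expressed was not determined. EGFR, ERBB2 and ERBB3 kept that order in all 4 groups. In attached control libraries they stood at 69.4 ± 3.14, 26.4 ± 0.052 and 2.01 ± 0.083 TPM (SD, n = 3). In attached GFI1 libraries they stood at 86.3 ± 1.92, 8.33 ± 0.46 and 1.83 ± 0.27 TPM. EGFR made up 70.9 ± 0.99% of the receptor TPM in attached control, 89.5 ± 0.29% in attached GFI1, 70.7 ± 0.89% in floating control and 91.3 ± 1.21% in floating GFI1 libraries. ERBB3 made up 5.15 ± 0.34% in floating control and 2.92 ± 0.54% in floating GFI1 libraries, and about 2% in the attached groups (2.06 ± 0.13% in control and 1.90 ± 0.31% with GFI1). The fourth receptor of the family, ERBB4, had 0 to 2 counts per library.

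**Figure D3:**
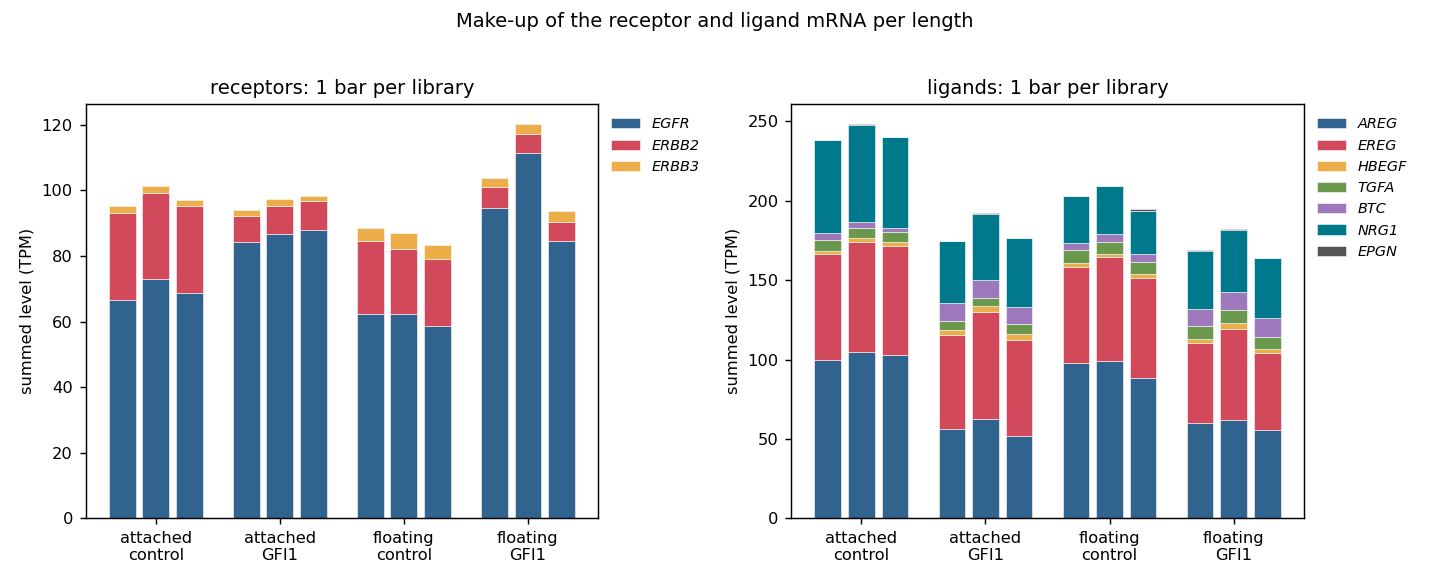
Summed level per length (TPM) of the 3 receptors (left) and the 7 ligands (right), with 1 stacked bar per library and colours for genes. EGFR fills 89.5% and 91.3% of the receptor bars in the attached and floating GFI1 groups on average, and AREG, EREG and NRG1 fill most of each ligand bar.

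Among the ligands, 4 genes lie in a stretch of 486 kb at chr4:74308473-74794686 (hg38), in the order EPGN, EREG, AREG on the plus strand and BTC on the minus strand. This stretch held 6 genes of the table, 3 of them tested, and the other ones were 2 antisense genes with 0 to 7 counts. The bases just upstream of the start sites are shown because EREG and AREG fell with GFI1, BTC rose, and EPGN was hardly detected. They were taken from RefSeq (GRCh38.p14), which gave a promoter for 8 of the 10 genes and not for ERBB3 or NRG1. Each line gives the 100 bases before the start, 5′ to 3′ on the strand of the gene, with capitals for TATAAA, the letters of the TATA box, and for TGACGTCA, a cyclic AMP response element.
EPGN: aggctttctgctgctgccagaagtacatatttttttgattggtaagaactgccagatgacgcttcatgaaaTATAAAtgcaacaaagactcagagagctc
EREG: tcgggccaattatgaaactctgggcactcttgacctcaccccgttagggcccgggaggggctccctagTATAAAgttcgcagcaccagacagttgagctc
AREG: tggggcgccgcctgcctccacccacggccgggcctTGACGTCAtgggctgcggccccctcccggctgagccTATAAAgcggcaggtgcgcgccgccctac
BTC: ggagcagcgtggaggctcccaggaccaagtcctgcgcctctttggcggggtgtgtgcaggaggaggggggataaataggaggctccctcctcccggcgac

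These lines cover chr4:74308370-74308469, chr4:74365045-74365144, chr4:74445036-74445135 and chr4:74794524-74794623. TATAAA began 29 bases before the start of EPGN, 32 before that of EREG and 29 before that of AREG, and was not found in the window of BTC, whose GC content over the 100 bases was 67% against 40% in EPGN, 57% in EREG and 75% in AREG. TATAAA was also in a second window of EGFR (chr7:55109589-55109888), 36 and 146 bases before that start. Of 35116 RefSeq promoters of the same length (250 bases before to 50 after the start), 11.5% held TATAAA on either strand. TGANTCA, the AP-1 site, was in that second window of EGFR, in the window of ERBB2 and in 7.71% of all promoters. It was not in the other window of EGFR (chr7:55018767-55019066), which holds the start of the gene. Such shares are per promoter, and EGFR and TGFA each had a second window. GGGCGG, the GC box, was in windows of TGFA, AREG, BTC, HBEGF and EGFR and in 45.0% of all promoters. TGACGTCA began 65 bases before the start of AREG, was in no other of the 8 matched genes, and was held by 1.85% of all promoters. The letters AAATCA, a core of known GFI1 sites, were in none of the windows of the 8 genes, on either strand, and in 13.2% of all promoters. TATAAA, TGACGTCA and AAATCA did not overlap each other in these windows, and a match or its absence is a description of these letters only.

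AREG (ENSG00000109321, chr4:74445134-74455009) encodes amphiregulin, a ligand of EGFR that many tumours make for themselves. It stood at 54.1, 55.9 and 54.4 CPM in attached control and at 26.5, 29.4 and 24.1 CPM in attached GFI1 libraries. It stood at 51.6, 53.1 and 45.8 CPM in floating control and at 27.6, 28.8 and 26.1 CPM in floating GFI1 libraries. The GFI1 libraries lay below all control libraries, and the attached and floating GFI1 groups overlapped. GFI1 lowered AREG 2.05-fold in attached cells (-1.04 ± 0.068, edgeR adjusted p = 9.26e-13), and 1.83-fold when they floated (-0.87 ± 0.069, adjusted p = 4.05e-11). On suspension its change was -0.13 ± 0.064 in control cells (95% interval -0.26 to 0.0049, adjusted p = 0.121) and 0.04 ± 0.072 in GFI1 cells (-0.11 to 0.19, adjusted p = 0.730).

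EREG (ENSG00000124882, chr4:74365143-74388751), which encodes epiregulin and ends 56.4 kb before AREG starts, changed by less. It stood at 125.1, 128.7 and 126.4 CPM in attached control and at 97.2, 109.4 and 96.5 CPM in attached GFI1 libraries. It stood at 111.4, 121.1 and 114.1 CPM in floating control and at 80.1, 92.7 and 78.4 CPM in floating GFI1 libraries, and the ranges of the 4 groups did not overlap. GFI1 lowered EREG 1.25-fold in attached cells (-0.33 ± 0.056, edgeR adjusted p = 1.91e-05), and 1.38-fold when they floated (-0.46 ± 0.058, adjusted p = 1.38e-07). Suspension lowered it in GFI1 cells (-0.27 ± 0.058, adjusted p = 0.000606), and in control cells its change of -0.13 ± 0.056 did not pass the threshold (adjusted p = 0.0622), except without floating control replicate 2 (-0.17, adjusted p = 0.0414). Its interaction did not pass (-0.14, adjusted p = 0.322), except without floating GFI1 replicate 2 (-0.24, adjusted p = 0.0270).

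Within a library, there were 1.5, 1.51 and 1.49 AREG for each EREG per length in attached control and 0.947, 0.931 and 0.868 in attached GFI1 libraries. In floating cells the ratio was 1.61, 1.52 and 1.39 in control and 1.19, 1.08 and 1.15 in GFI1 libraries. GFI1 lowered the ratio 1.47-fold as a mean of 1.64-fold in attached and 1.32-fold in floating cells (exact permutation p = 0.005, the smallest possible, adjusted p = 0.00667). Per length, the attached GFI1 libraries were the only group with less AREG than EREG. Suspension gave a difference of 0.0048 on the log2 scale in control cells, where the libraries overlapped, and of 0.32 in GFI1 cells, where every floating library lay above the attached ones. The mean of these was 0.16 (exact permutation p = 0.045, adjusted p = 0.0514), which did not pass, except without floating control replicate 3 (0.19, adjusted p = 0.00667).

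BTC (ENSG00000174808, chr4:74744759-74794686, minus strand) encodes betacellulin, which binds EGFR and ERBB4. It stood at 4.41, 3.31 and 2.12 CPM (74, 61 and 37 counts) in attached control and at 9.13, 9.19 and 8.46 CPM in attached GFI1 libraries. It stood at 4.15, 5.0 and 4.31 CPM in floating control and at 8.05, 9.04 and 9.50 CPM in floating GFI1 libraries. Every GFI1 library lay above every control library, and the 2 GFI1 groups overlapped. GFI1 raised BTC 2.72-fold in attached cells (1.45 ± 0.164, edgeR adjusted p = 2.72e-08), and 1.98-fold when they floated (0.99 ± 0.157, adjusted p = 6.11e-06). Its suspension change in control cells was 0.45 ± 0.184 (adjusted p = 0.0524) and reached 0.71 without attached control replicate 1 (adjusted p = 0.00429). Its interaction was -0.46 ± 0.231 (adjusted p = 0.238) and -0.72 without that library (adjusted p = 0.0435). In GFI1 cells its suspension change was -0.0079 ± 0.139 (adjusted p = 0.976).

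NRG1 (ENSG00000157168, chr8:31639386-32767959, plus strand) encodes neuregulin-1, the ligand of ERBB3, and had the largest interaction of the 9 tested genes. It stood at 217.8, 226.0 and 209.8 CPM in attached control and at 126.5, 133.1 and 137.0 CPM in attached GFI1 libraries. It stood at 107.7, 111.0 and 98.2 CPM in floating control and at 116.8, 125.2 and 122.0 CPM in floating GFI1 libraries. The order was attached control, attached GFI1, floating GFI1 and floating control, with no overlap between neighbours. GFI1 lowered NRG1 1.65-fold in attached cells (-0.72 ± 0.048, edgeR adjusted p = 1.23e-12) and raised it 1.15-fold in floating cells (0.20 ± 0.050, adjusted p = 0.00116). Suspension lowered it 2.06-fold in control cells (-1.04 ± 0.049, adjusted p = 1.11e-14). In GFI1 cells its change on suspension was -0.12 ± 0.049 and did not pass the threshold (adjusted p = 0.0545), except without attached GFI1 replicate 1 (-0.15, adjusted p = 0.0350) or floating GFI1 replicate 2 (-0.16, adjusted p = 0.0188). The interaction was 0.92 ± 0.069 (adjusted p = 1.34e-09), and 6.27% of all tested genes had a larger one. Without floating GFI1 replicate 2 it was 0.88 (adjusted p = 1.59e-11), and without replicate 3 it was 0.92 (adjusted p = 5.48e-11). NRG1 and its receptor ERBB3 thus went in opposite directions when control cells were suspended, NRG1 2.06-fold down and ERBB3 2.18-fold up.

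TGFA (ENSG00000163235, chr2:70447280-70554193, minus strand), transforming growth factor alpha, was at 11.3, 10.4 and 9.53 CPM in attached control and at 7.32, 7.25 and 9.01 CPM in attached GFI1 libraries. It was at 13.3, 11.9 and 11.6 CPM in floating control and at 11.8, 11.1 and 10.9 CPM in floating GFI1 libraries. The attached GFI1 group was apart from the other groups, and the floating groups overlapped. GFI1 lowered TGFA in attached cells (-0.41 ± 0.11, edgeR adjusted p = 0.00245), while its difference in floating cells was -0.12 ± 0.104 (adjusted p = 0.321). Suspension raised it in GFI1 cells (0.52 ± 0.108, adjusted p = 0.000546), with a change of 0.23 ± 0.106 in control cells (adjusted p = 0.0828). The difference between these 2 effects, 0.28 ± 0.151, did not pass the threshold (adjusted p = 0.273).

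HBEGF (ENSG00000113070, chr5:140332843-140346631, minus strand), heparin-binding EGF, had 30 to 72 counts per library and was past the threshold in none of the 5 edgeR tests. Its level was 2.02, 2.44 and 2.58 CPM in attached control and 2.76, 3.32 and 3.25 CPM in attached GFI1 libraries, and its 95% interval for the GFI1 effect in attached cells was -0.01 to 0.83 on the log2 scale (adjusted p = 0.0870). Its unadjusted p was below 0.05 in none of the 5 tests, and the floating groups overlapped, at 2.25, 1.81 and 2.32 CPM in control and 2.26, 3.09 and 1.94 CPM in GFI1 libraries. On suspension of GFI1 cells its change was -0.37 (adjusted p = 0.180), or -0.59 without floating GFI1 replicate 2 (adjusted p = 0.0497).

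EPGN (ENSG00000182585, chr4:74308473-74315307, plus strand) had 1, 3 and 0 counts in attached control, 3, 4 and 3 in attached GFI1, 0, 0 and 9 in floating control and 1, 5 and 0 in floating GFI1 libraries. At a floor of 3 counts per library, no difference between the groups was detectable at this depth.

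Per length, AREG was the most abundant ligand in 3 of the 4 groups, at 102.3 ± 2.45 TPM in attached control, 95 ± 5.96 TPM in floating control and 59.2 ± 3.17 TPM in floating GFI1 libraries (SD, n = 3). In attached GFI1 libraries EREG stood first, at 62.3 ± 4.36 TPM against 57.0 ± 5.28 TPM for AREG, a difference of about the size of the SD in levels, although the ratio within each of these libraries was below 1. In the 3 groups led by AREG, EREG was second, at 68.2 ± 1.52, 63.1 ± 2.26 and 52.0 ± 4.80 TPM. NRG1 followed AREG and EREG in every group, at 59.2 ± 2.02, 41.1 ± 2.03, 29.1 ± 1.41 and 38.0 ± 1.10 TPM in attached control, attached GFI1, floating control and floating GFI1. The ligand after NRG1 was TGFA in the control groups and BTC in the GFI1 groups. BTC made up 1.48 ± 0.51% of the ligand TPM in attached control, 6.17 ± 0.27% in attached GFI1, 2.45 ± 0.18% in floating control and 6.53 ± 0.64% in floating GFI1 libraries. The order of AREG, EREG and NRG1 depends on their deposited lengths of 1648, 5717 and 11328 bases. In CPM, which does not divide by length, AREG lay below EREG and NRG1 in every group, with means of 54.8, 126.8 and 217.9 in attached control.

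The sum of the 6 ligands that bind EGFR, divided by EGFR per length, was 2.70, 2.57 and 2.66 in attached control and 1.61, 1.74 and 1.52 in attached GFI1 libraries. It was 2.79, 2.88 and 2.86 in floating control and 1.40, 1.29 and 1.49 in floating GFI1 libraries. GFI1 lowered this ratio 1.83-fold as a mean of 1.63-fold in attached and 2.05-fold in floating cells (exact permutation p = 0.005, the smallest possible, adjusted p = 0.00667). On suspension the ratio went opposite ways, with a log2 difference of 0.11 in control cells, where every floating library lay above the attached ones, and -0.22 in GFI1 cells, where every floating library lay below them. The mean of these 2 differences was -0.06 (exact permutation p = 0.415, adjusted p = 0.415), and it does not describe either kind of cell. These are ratios of mRNA, and neither protein nor shed ligand was measured.

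The remaining receptor and ligands of the family, ERBB4, EGF, NRG2, NRG3 and NRG4, were expressed at low levels, and 3 of the 5 were tested. EGF had 17 to 63 counts and rose with GFI1 in attached cells (0.86 ± 0.251, edgeR adjusted p = 0.00446) and on suspension of control cells (0.89 ± 0.255, adjusted p = 0.00654), where the call was lost without attached control replicate 2 (0.69, adjusted p = 0.0513) or floating control replicate 1 (0.72, adjusted p = 0.0512). NRG4 had 8 to 35 counts and was lower with GFI1 in floating cells (-0.87 ± 0.323, adjusted p = 0.0234), except without floating control replicate 3 (-0.69, adjusted p = 0.115) or floating GFI1 replicate 2 (-0.55, adjusted p = 0.146). None of the 3 was past the threshold for the interaction.

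Of 10 genes for the shedding of ligands, 9 were tested, and with GFI1 6 rose and 3 fell in attached cells and 7 rose and 2 fell in floating cells. All 9 were thus past the threshold, against 62.3% and 60.4% of all tested genes, with median log2 changes of 0.27 (attached) and 0.33 (floating), against medians over all genes of -0.0066 and 0.01. Such shares, here and for the lists below, are over tested genes of every level and were not matched for level. The 9 genes had from 261 counts (ADAM19) to 12645 counts (ADAM9) per library. ADAM9, a membrane protease, stood at 652.9, 686.7 and 656.0 CPM in attached control and at 199.8, 211.6 and 209.2 CPM in attached GFI1 libraries. Its log2 change with GFI1 was -1.68 ± 0.048 in attached cells (edgeR adjusted p = 2.54e-20) and -1.73 ± 0.048 when they floated (adjusted p = 1.98e-20). ADAM19 fell too (-0.76 and -1.04). ADAM12 rose by 0.95 ± 0.062 (adjusted p = 7.68e-13) and 1.48 ± 0.063 (adjusted p = 1.41e-16), and FRMD8, which stabilises the complex of ADAM17 with its iRhom carriers, rose by 1.11 ± 0.061 and 1.18 ± 0.061. ADAM17, the main sheddase of AREG, EREG, HBEGF and TGFA, had smaller rises of 0.46 ± 0.047 (adjusted p = 3.54e-09) and 0.22 ± 0.046 (adjusted p = 0.000177), and ADAM10, the main sheddase of BTC, rose by 0.27 ± 0.042 (adjusted p = 4.42e-06) and 0.45 ± 0.042 (adjusted p = 9.89e-10). On suspension 1 rose and 3 fell in control cells, 4 of 9 against 40.1% of all tested genes, and 4 rose and 3 fell in GFI1 cells, 7 of 9 against 31.3%. In control cells ADAM17 rose by 0.30 ± 0.047 (adjusted p = 1.36e-05), while RHBDF2, an iRhom, fell (-0.45 ± 0.052, adjusted p = 1.25e-07). The interaction was past the threshold for ADAM12 (0.52), RHBDF1 (0.46), RHBDF2 (0.24) and ADAM17 (-0.24), 4 of 9 against 10.8% of all tested genes, and that of RHBDF2 was lost in 8 of the 12 fits that each left out 1 library (0.21 to 0.29). In such fits the RHBDF2 call with GFI1 in attached cells (0.13) was lost in 3 of 6. The FRMD8 call on suspension of GFI1 cells (0.20) was also lost in 3 of 6.

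Of 24 genes for adaptors and the route from RAS to ERK, 23 were tested. With GFI1, 11 rose and 11 fell in attached cells, and 10 rose and 7 fell in floating cells, with median log2 changes of 0.18 and 0.0053. That made 22 and 17 of 23 past the threshold, against 62.3% and 60.4% of all tested genes. With scaling by library size only, 6 rather than 11 fell in attached cells. SHC1, an adaptor that binds the activated receptors, rose from 445.2, 488.1 and 504.9 CPM in attached control to 862.8, 784.9 and 811.5 CPM in attached GFI1 libraries (0.77 ± 0.050, edgeR adjusted p = 6.20e-13), and by 0.86 ± 0.050 in floating cells (adjusted p = 7.08e-14). GAB1 rose by 0.91 ± 0.130 in attached cells (adjusted p = 1.13e-06) and PIK3CB, a PI3K catalytic subunit, by 0.92 ± 0.053 in floating cells (adjusted p = 7.70e-14). GAB1 also rose in floating cells (0.76, edgeR adjusted p = 7.12e-06), and PIK3CB in attached cells (0.63, adjusted p = 1.32e-10). GRB7 and GAB2 fell the most in both conditions, GAB2 with -1.22 ± 0.153 (adjusted p = 1.61e-07) in attached and -0.76 ± 0.147 (adjusted p = 8.01e-05) in floating cells. Suspension raised 8 and lowered 6 in control cells, led by PIK3CA (0.47 ± 0.090) and HRAS (-0.38 ± 0.055), and raised 6 and lowered 3 in GFI1 cells, led by GAB2 (0.46 ± 0.163) and GRB7 (-0.40 ± 0.148). These were 14 and 9 of 23, against 40.1% and 31.3% of all tested genes. With 1 library left out at a time, the suspension call in GFI1 cells was lost in 3 of 6 fits for GAB2 (0.26 to 0.59) and in 4 of 6 for GRB7 (-0.55 to -0.30). The interaction was past the threshold for PIK3CB (0.29), HRAS (0.26), MAP2K2 (0.23), PLCG1 (0.22) and GRB7 (-0.68), 5 of 23 against 10.8% of all tested genes. Of these, the interaction of PIK3CB held with each of the 12 libraries left out in turn, and that of MAP2K2 was lost in 8 of the 12 fits, HRAS in 7, PLCG1 in 4 and GRB7 in 1, without attached GFI1 replicate 2 (-0.58, edgeR adjusted p = 0.0661). Without floating GFI1 replicate 2 the interaction of MAP2K2 was 0.15 (adjusted p = 0.143).

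Of 20 genes for inhibitors and turnover of the receptors, 19 were tested. With GFI1, 8 rose and 6 fell in attached cells, and 9 rose and 6 fell in floating cells, with median log2 changes of 0.10 and 0.12. That made 14 and 15 of 19 past the threshold, against 62.3% and 60.4% of all tested genes. CBLB, a ubiquitin ligase that marks activated EGFR for degradation, had the largest change of any gene in these lists. It stood at 18.1, 20.2 and 18.2 CPM in attached control and at 244.1, 250.9 and 247.4 CPM in attached GFI1 libraries. It stood at 22.9, 20.8 and 22.8 CPM in floating control and at 238.2, 208.9 and 224.4 CPM in floating GFI1 libraries. GFI1 raised it 13.1-fold in attached cells (3.71 ± 0.059, edgeR adjusted p = 3.23e-25), and 10.1-fold when they floated (3.34 ± 0.058, adjusted p = 1.46e-24), and the interaction was -0.38 ± 0.085 (adjusted p = 0.00403). CBL, which encodes the related ligase, had a GFI1 effect past the threshold in floating but not in attached cells, and its interaction was 0.35 ± 0.101 (adjusted p = 0.0246). Its floating GFI1 libraries had 49.8, 64.8 and 55.8 CPM, and the interaction was lost in 6 of the 12 fits with 1 library left out, at its lowest without floating GFI1 replicate 2 (0.23, adjusted p = 0.0961). SOCS3 rose with GFI1 by 0.80 ± 0.070 in attached cells (adjusted p = 2.41e-10), and 0.88 ± 0.072 when they floated (adjusted p = 7.98e-11).

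ERRFI1 encodes MIG6, which binds and blocks the kinase of EGFR. It stood at 148.0, 148.9 and 157.2 CPM in attached control, 72.7, 77.2 and 69.0 CPM in attached GFI1, 334.6, 322.8 and 289.2 CPM in floating control, and 119.7, 176.4 and 95.1 CPM in floating GFI1 libraries. GFI1 lowered it, with a log2 change of -1.05 ± 0.123 in attached cells (edgeR adjusted p = 4.56e-08) and -1.28 ± 0.117 when they floated (adjusted p = 6.22e-10). Suspension raised it by 1.06 ± 0.116 in control (adjusted p = 4.82e-08) and 0.83 ± 0.123 in GFI1 cells (adjusted p = 7.71e-06). Replicate 2 of the floating GFI1 group was the highest of its group, and without it the suspension change in GFI1 cells was 0.54 (adjusted p = 7.48e-08), against 1.02 without replicate 3 (adjusted p = 1.03e-10). The interaction of ERRFI1 was -0.22 (adjusted p = 0.472), and it passed the threshold without replicate 2 (-0.52, adjusted p = 4.74e-05). LRIG3, of the LRIG family of receptor regulators, fell with GFI1 as well (-1.24 ± 0.117 and -1.57 ± 0.115). The other genes of that family, LRIG1 (0.37 and 0.30) and LRIG2 (0.28 and 0.33), rose with GFI1 in attached and floating cells. With 1 library left out, LRIG1 in floating cells lost its call in 2 of 6 fits, and LRIG2 in attached cells in 1. Suspension raised 6 and lowered 4 of the 19 in control cells, and raised 4 and lowered 2 in GFI1 cells, 10 and 6 of 19 against 40.1% and 31.3% of all tested genes, with changes other than that of ERRFI1 of at most 0.37 in size. SH3KBP1, a CBL-binding adaptor, had an interaction of 0.41 ± 0.108 (adjusted p = 0.0145). Its floating GFI1 libraries had 108.5, 130.8 and 94.3 CPM, and the interaction was 0.26 without replicate 2 of that group (adjusted p = 0.0280), 0.51 without replicate 3 (adjusted p = 5.88e-05) and not past the threshold without floating control replicate 3 (0.36, adjusted p = 0.0545).

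**Figure D4:**
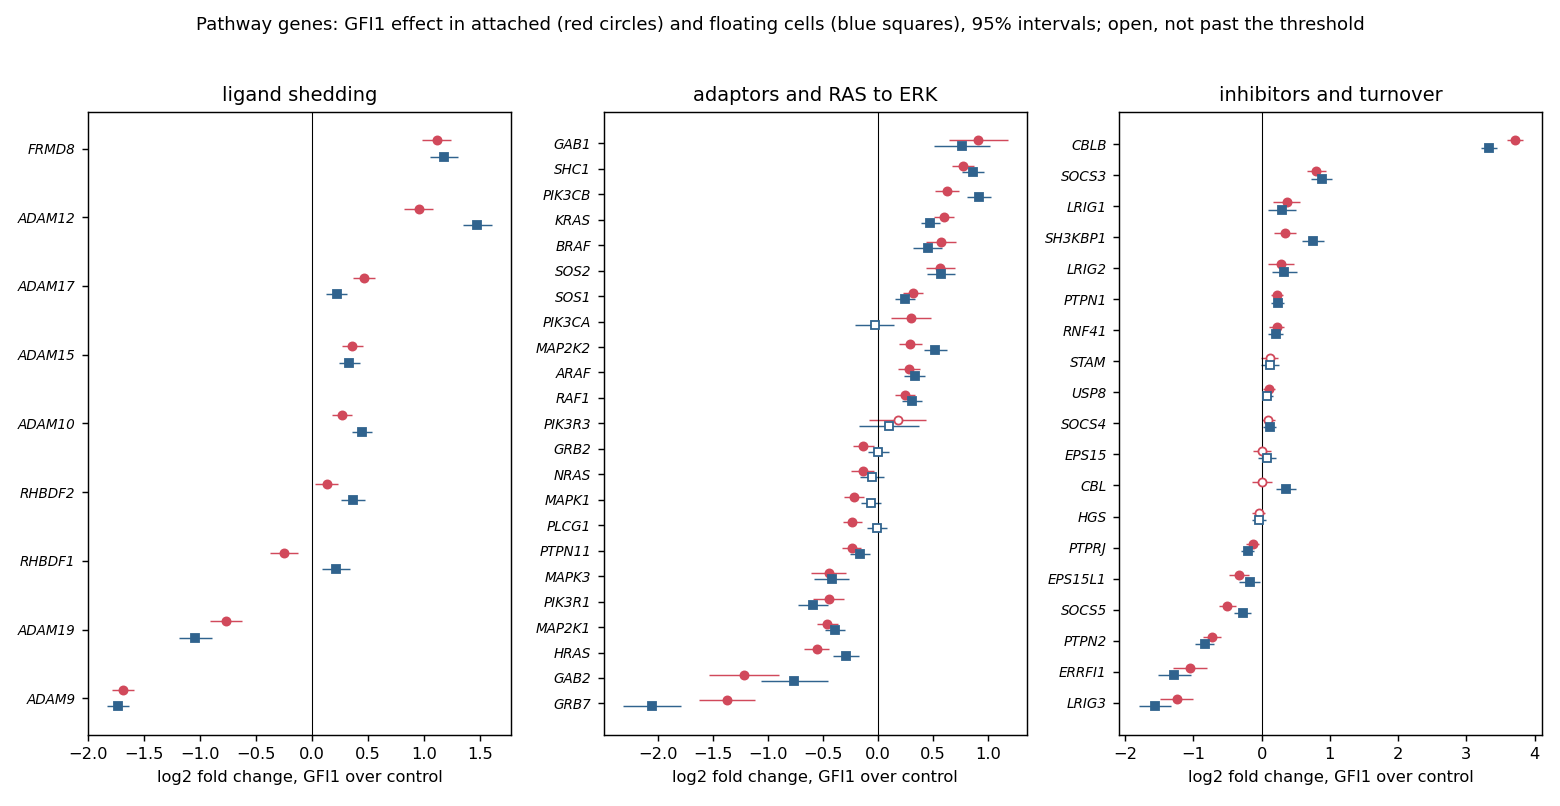
Log2 fold changes of GFI1 over control with 95% intervals for the tested genes of the 3 pathway lists, in attached cells (red circles) and floating cells (blue squares), ordered by the change in attached cells. Open symbols did not pass an adjusted p of 0.05. The axes differ between panels. CBLB stands alone at 3.71 and 3.34, and in attached cells ADAM9, GRB7, LRIG3, GAB2 and ERRFI1 lie lowest.

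The genes with the most similar levels over the 12 libraries were sought among 11877 other protein-coding genes whose log2 CPM averaged 1 or more, by Pearson's r of that value. Since the 12 libraries fall into 4 groups, such an r mostly describes the group means, and it is given without a test. The pairs were NEDD9 (r = 0.998) and IMPA2 (0.998) for ERBB2, PRAG1 (0.972) and NR4A3 (0.969) for EGFR, and RNF13 (0.981) and TMBIM6 (0.979) for ERBB3. NEDD9 encodes a docking protein of focal adhesions, and NR4A3 a nuclear receptor that is an immediate early gene. For the ligands they were SEC23A (0.993) and TULP3 (0.992) for AREG, TCEA1 (0.980) and TDP1 (0.980) for EREG, ITPKC (0.974) and JKAMP (0.972) for BTC, and VSIR (0.978) and WTIP (0.976) for NRG1. They were EFNB1 (0.944) and INSIG1 (0.932) for TGFA, and WDR83 (0.877) and SPHK2 (0.863) for HBEGF, the ligand with the fewest counts among those tested.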

How the data were processed

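The deposited table holds raw counts of fragments per gene with gene positions and lengths, made by the authors from poly-A selected RNA sequenced on a NovaSeq instrument. The study's methods name FastQC, Hisat2 (GRCh38), featureCounts and DESeq2, whereas the submitters' processing notes name Bowtie2, HTSeq and hg38. The annotation release and the strand setting are not given in the sources used here. Groups and replicate numbers came from the labels, and 0 other value columns were set aside. Same-numbered libraries did not deviate together (18 pairs, r from -0.031 to 0.031), so no pairing was used.

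Counts were analysed with edgeR 4.0.16 in R 4.3.3. Genes were filtered by filterByExpr (minimum count 10, minimum total 15, 17829 genes left), scaled by TMM, and fitted with 4 group means over the 12 libraries (biological coefficient of variation 4.86%). Depth was 17014188 to 20748677 counts per library, and 3 counts per library were taken as the floor. The 5 contrasts were tested with glmQLFTest, two-sided, with Benjamini-Hochberg adjustment within each contrast. CPM values are TMM scaled, log2 CPM used a prior count of 2, and TPM used the lengths in the table. Ratios were tested with SciPy 1.17.1. The edgeR fit was tested on simulated counts, with changes planted in the attached GFI1 libraries and only the GFI1 contrasts read out. The alternatives were DESeq2 1.42.0, RLE, upper quartile and library-size scaling, no filter, a minimum of 10 counts in each library, robust empirical Bayes, fits of the compared groups alone, a replicate block, leaving out each library, RPKM for TPM, a pseudocount of 1, counts without length in the ratios, and Spearman's rho.

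The 10 genes, the lists and the tests were chosen with earlier results of these data known. Named genes were all 10, GFI1, for each list the 2 highest and 2 lowest changes past the threshold in each contrast and those past it for the interaction, the 2 most similar genes of each tested gene, and genes that overlap one of the 10 or lie in the stretch on chromosome 4. ADAM17 and ADAM10 under GFI1, and CBL, are described for their known roles, and the position of GRB7 beside ERBB2 was looked up after its values were seen. LRIG1 and LRIG2 are given because they belong to the family of LRIG3. For GAB1 and PIK3CB, the GFI1 effect in the condition outside this rule is given as well. For lists with more than 4 such genes, a part is named. 1 item of the blood marker list is not reported here.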

Additional observations from a re-analysis of the deposited data

Results flagged for a closer look

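The change on suspension differed between GFI1 and control cells for NRG1, by a test of the difference itself. GFI1 itself was higher in floating than in attached GFI1 cells, and its part in the results for NRG1 and EGFR was not tested. The log2 change of NRG1 was -1.04 in control and -0.12 in GFI1 cells, a difference of 0.92 ± 0.069 (edgeR adjusted p = 1.34e-09). All 3 floating control libraries lay below the attached control libraries (98.2 to 111.0 against 209.8 to 226.0), and the floating GFI1 libraries (116.8 to 125.2) lay just below the lowest attached GFI1 library (126.5). The difference was 0.87 to 0.96 when each library was left out in turn.

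The same difference was 0.36 ± 0.091 for EGFR (edgeR adjusted p = 0.00976), from -0.21 in control and 0.15 in GFI1 cells. It was 0.23 to 0.44 with each library left out in turn, lowest without floating GFI1 replicate 2, where EGFR and GFI1 were highest. Robust empirical Bayes gave 0.36 with an adjusted p of 0.0832, so the difference for EGFR depends on that choice.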

How the results depend on the processing

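The calls of ERBB2, AREG and EREG with GFI1 in both conditions, of BTC with GFI1, of NRG1 in attached and floating cells, and of ERBB3 on suspension held under every alternative tried. The ERBB3 call with GFI1 in attached cells was lost with DESeq2 (-0.33), upper quartile scaling (-0.28), library size only (-0.19), at least 10 counts in every library (-0.31) and only the groups compared (-0.31). EGFR in attached cells became a call with upper quartile scaling (0.17), library size only (0.27) and only the groups compared (0.14), and HBEGF with library size only (0.55). Library size only shifted the median of all genes to 0.14 in both GFI1 effects and gave 7001 higher and 4375 lower calls in attached cells (5258 and 5844 with TMM) and 6840 and 4308 in floating cells (5223 and 5547 with TMM), and TGFA in floating cells turned to 0.0076 there. For suspension of control cells, BTC became a call with RLE (0.46), upper quartile (0.47), library size only (0.47), no filter (0.44), at least 10 counts (0.47) and robust empirical Bayes (0.45), EREG with no filter (-0.14), robust empirical Bayes (-0.13) and only the groups compared (-0.13), and EGFR was lost with robust empirical Bayes (-0.21). For suspension of GFI1 cells, EGFR became a call with upper quartile scaling (0.17) and no filter (0.16), NRG1 with library size only (-0.12) and robust empirical Bayes (-0.12), and BTC turned to 0.0071 with upper quartile scaling. Robust empirical Bayes left 1 gene rather than 2 past the threshold for the interaction, with EGFR lost (0.36). The causes were not tested.

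The replicate block, for numbers that share no more than a label (3 of 12 libraries correlated best with their own number), made calls of EREG on suspension of control cells (-0.13) and of EGFR (0.15) and NRG1 (-0.12) on suspension of GFI1 cells, and it changed no other call of the 9 genes. When each library was left out, ERBB3 in attached cells ran from -0.41 to -0.19 and HBEGF in floating cells from -0.017 to 0.33. On suspension of control cells the ranges were 0.22 to 0.71 for BTC, -0.23 to -0.17 for EGFR and -0.17 to -0.11 for EREG. On suspension of GFI1 cells they were -0.043 to 0.12 for AREG, -0.062 to 0.056 for BTC, 0.023 to 0.24 for EGFR, -0.59 to -0.22 for HBEGF and -0.16 to -0.098 for NRG1. For the interaction they were -0.72 to -0.23 for BTC and -0.24 to -0.077 for EREG. The suspension ratio of AREG to EREG ran from 0.14 to 0.19. The sign changes were those of AREG and BTC on suspension of GFI1 cells and of HBEGF in floating cells, none of them calls. The order of the genes per length was the same with RPKM, but RPKM divides by the same lengths and must give the same order within a library, so this is no check of the order. Spearman's rho named 4 of the 18 similar genes again. At 30 to 72 counts, the intervals of HBEGF limit what its tests can show. For the genes of the pathway lists, leaving out each library in turn was an alternative chosen after seeing the data, as was the scaling of the cell type markers. It kept 40 of 46 calls with GFI1 in attached and 38 of 42 in floating cells in every such fit, 16 of 29 and 12 of 22 on suspension of control and GFI1 cells, and 5 of 12 for the interaction.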
